A study of Arabidopsis thaliana with 12 samples.

Results

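PSAD, PSAE and PSAH are nuclear-encoded subunits of photosystem I, and in Arabidopsis thaliana each is encoded by a pair of genes. The 6 genes were taken by their AGI identifiers from 22337 genes listed in the tables: PSAD-1 (AT4G02770), PSAD-2 (AT1G03130), PSAE-1 (AT4G28750), PSAE-2 (AT2G20260), PSAH-1 (AT3G16140) and PSAH-2 (AT1G52230). The rule sets no cut on measured values, but it was chosen with earlier results of these data known. All 6 were found both among the tagged reads and among all reads. The comparison within each pair asks whether the copies have the same share of tagged reads, where the tag marks an NAD+ cap. This share is not the share of transcripts with the cap. It rises when tagged molecules are enriched, and how completely capped RNA was tagged is not known here.

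RNA came from whole Col-0 seedlings without special treatment, 12 days old and grown on plates with 1% sucrose at 23 °C under 16 h of light and 8 h of darkness. In NAD tagSeq, adenosine diphosphate ribosylcyclase (ADPRC) modifies the NAD+ at the 5′ end of an RNA so that a synthetic tag RNA can be joined to it. RNA is then sequenced directly, 1 molecule per read, by Nanopore. The 12 libraries comprised poly(A) RNA enriched for tagged molecules with ADPRC (3 libraries) and without it (3), unenriched poly(A) RNA with ADPRC (3) and without it (1), and enriched total RNA with and without ADPRC (1 each). Reactions without ADPRC served as the background control, and nothing in the labels places the replicates in separate cultures: a p-value here reflects library-to-library spread that could be technical alone.

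Photosystem I uses light to move electrons from plastocyanin to ferredoxin. PSAD and PSAE lie on the stromal face of the complex and form the docking site of ferredoxin, while PSAH lies on the side of the complex where the mobile light-harvesting antenna docks during state transitions. All are made in the cytosol and imported into the chloroplast. An NAD+ cap takes the place of the 5′ methylguanosine cap on a fraction of messenger RNAs.

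Poly(A) libraries held 378322 to 1233999 reads. The tagged share of all reads was 14.1% to 23.9% in enriched libraries with ADPRC, lowest in replicate 3, and 0.132% to 0.224% in those without it. It was 0.546% to 0.743% in unenriched libraries with ADPRC and 0.00207% in the single library without it. Levels are given as CPM, over the total of tagged and untagged reads in a library, with no correction for transcript length. Markers of green tissue were abundant in every poly(A) library, at a summed 45096 to 55525 CPM, beside 1308 to 3246 CPM for root and 322 to 841 CPM for myrosin cell markers. Seed storage markers were at 0 to 15.9 CPM. Libraries were made from whole seedlings, so fewer cells of a type and less RNA per cell cannot be told apart.

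Among all reads, the first copy was the more abundant one in the PSAD and PSAE pairs and the second copy in the PSAH pair. In unenriched libraries with ADPRC, PSAD-1 stood at 4319, 4414 and 4675 CPM and PSAD-2 at 1647, 1638 and 1680 CPM in replicates 1, 2 and 3. PSAE-1 stood at 4536, 4941 and 4787 CPM, against 700.5, 609 and 586 CPM for PSAE-2. PSAH-1 was at 1382, 1386 and 1380 CPM and PSAH-2 at 2836, 2940 and 2997 CPM. The copies of each pair did not overlap in these libraries, and the unenriched library without ADPRC showed the same order in each pair, with 4863 and 1983 CPM for PSAD-1 and PSAD-2, 5309 and 674 CPM for PSAE-1 and PSAE-2, and 1525 and 3174 CPM for PSAH-1 and PSAH-2. Its values have no replicate.

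The order within each pair held in all 10 poly(A) libraries. Over these libraries PSAD-1 was 2.16 times PSAD-2 (mean log2 ratio 1.11, SD 0.40), PSAE-1 was 7.30 times PSAE-2 (2.87, SD 0.15) and PSAH-1 was 0.625 times PSAH-2 (-0.68, SD 0.39). In an exact sign-flip permutation test over libraries, two-sided, each pair gave p = 0.00195, and 0.00195 after adjustment over the 3 pairs, the smallest value that 10 libraries allow. Libraries of 1 group may share their source, and same-numbered enriched libraries with and without ADPRC deviated together. The 10 libraries may thus hold fewer independent units than the test counts, and its p may be too small. Within a group of 3 libraries the same test cannot go below 0.25. Per kilobase of annotated gene span, introns included, the mean log2 ratios were 0.86 for PSAD, 2.53 for PSAE and -1.56 for PSAH, in the same directions.

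With 1 molecule per read, CPM itself orders the genes across pairs. In unenriched libraries with ADPRC, PSAE-1 had the highest mean, at 4755 ± 204 CPM (SD, n = 3). PSAD-1 came next at 4469 ± 184 CPM, and the libraries of these genes overlapped. Division by gene span reversed the order of PSAE-1 and PSAD-1. Per kilobase of span the level was highest for PSAD-1 at 3941 ± 162 CPM (SD, n = 3), followed by PSAE-1 at 3646 ± 157 and PSAH-2 at 3357 ± 93.4. PSAD-2 followed at 1731 ± 23.1, PSAH-1 at 859.8 ± 1.96 and PSAE-2 at 611 ± 58.5. The 3 highest genes are the more abundant copies of their pairs, and their gaps are narrow: the lowest library of PSAD-1 stood at 3809 and the highest of PSAE-1 at 3789, the lowest of PSAE-1 at 3478 and the highest of PSAH-2 at 3441 CPM per kilobase. In enriched libraries with ADPRC PSAD-2 stood second per kilobase, at 3915 ± 1227, and its libraries overlapped those of PSAD-1, PSAE-1 and PSAH-2 on this scale. The spans include introns that the transcripts lack, so this order describes the annotation used as well as the reads.

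**Figure D1:**
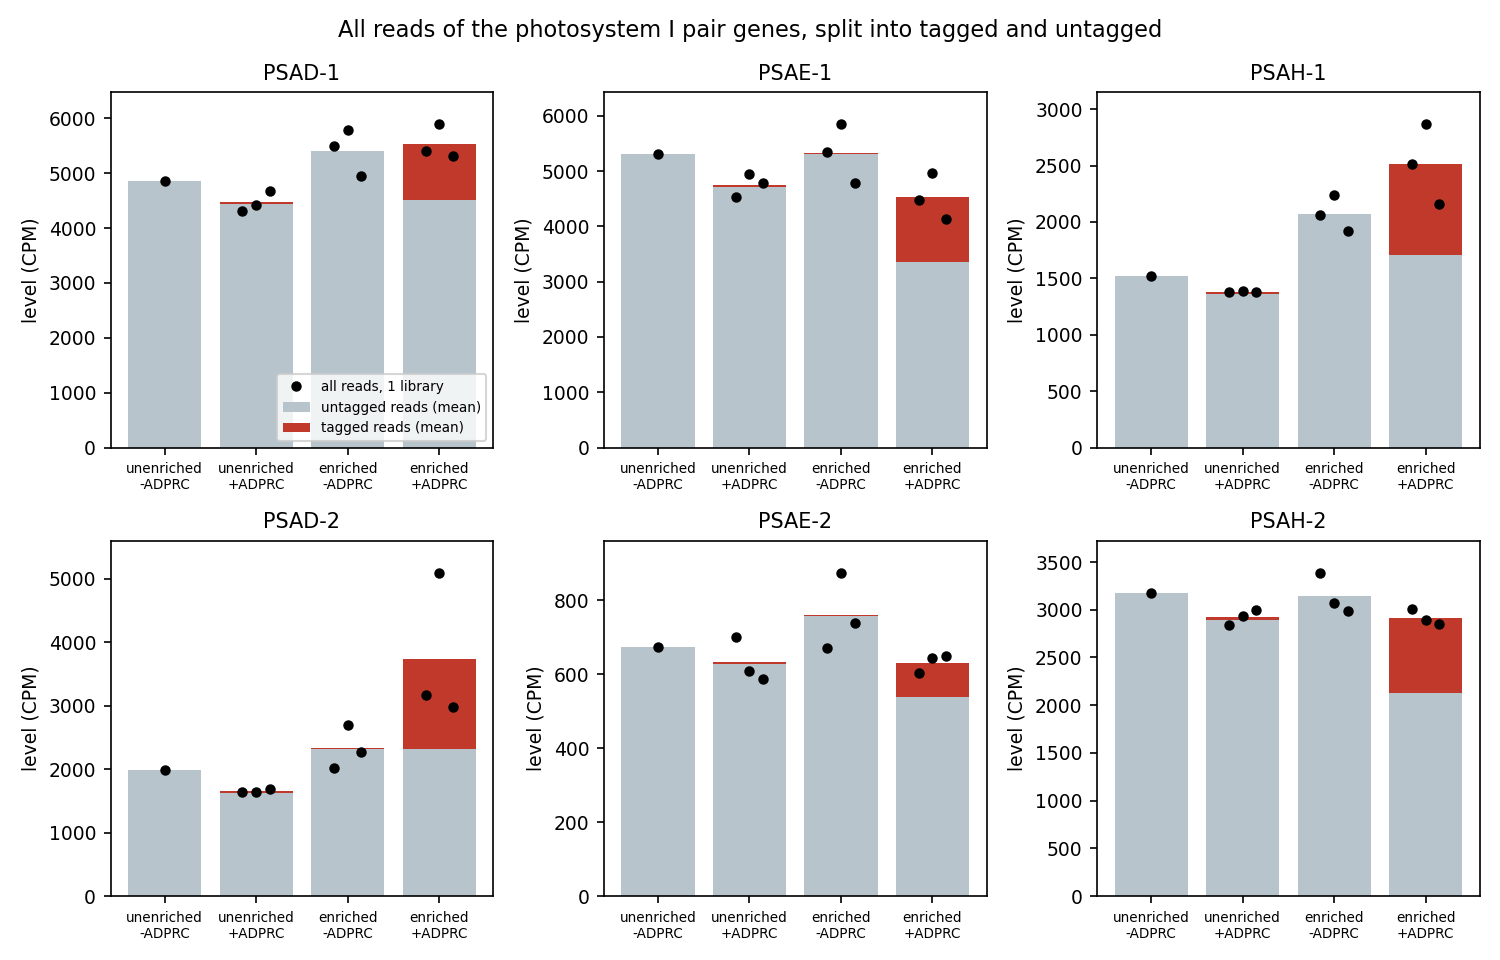
Level of each gene in CPM of all reads (vertical axis) in the groups of poly(A) libraries. Bars are means split into untagged and tagged reads, and points are the all-read values of single libraries. PSAE-2 is the lowest gene in each group, and tagged reads form a visible part of the bars in enriched libraries with ADPRC.

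Tagged reads of all 6 genes were more abundant with ADPRC than without it. In enriched libraries with ADPRC, tagged reads of PSAD-1 stood at 1208, 1137 and 716 CPM and of PSAD-2 at 1338, 2215 and 719 CPM in replicates 1, 2 and 3. Without ADPRC they stood at 5.13, 5.76 and 8.43 CPM for PSAD-1 and at 5.13, 5.76 and 5.27 CPM for PSAD-2. The groups did not overlap, and replicate 3 was the lowest of the libraries with ADPRC for both genes.

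PSAE-1 had 1293, 1381 and 817 CPM of tagged reads with ADPRC, against 12.8, 17.3 and 7.38 CPM without it. PSAE-2, the least abundant member, had 96.1, 93.4 and 89.1 CPM with and 0, 1.92 and 5.27 CPM without the enzyme. It was the member with the smallest relative spread between replicates with ADPRC. PSAH-1 had 863, 994 and 552 CPM with ADPRC and 0, 7.68 and 2.11 CPM without, and PSAH-2 had 914, 809 and 630.5 CPM with ADPRC and 5.13, 3.84 and 4.22 CPM without. For PSAE and PSAH, too, every enriched library with ADPRC lay above every one without it, as did 96% of all genes tested.

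The ratio of mean tagged levels with over without ADPRC was 158 for PSAD-1, 264 for PSAD-2, 93.1 for PSAE-1, 38.7 for PSAE-2, 246 for PSAH-1 and 178 for PSAH-2. In limma on log2(CPM + 0.953), all 6 members were called higher with ADPRC, in a comparison in which 96.7% of the 7634 genes tested were called higher. All 6 passed the filter on low values. That background is itself tied to the filter, which asks for values above 0 in 3 libraries: without 1 of the libraries with ADPRC, 1388 to 1420 genes were tested in place of 7634. The limma log2 differences ran from 5.19 for PSAE-2 (SE 0.68, adjusted p = 0.000588) to 7.67 for PSAD-2 (SE 0.51, adjusted p = 4.56e-05) and 8.06 for PSAH-1 (SE 0.83, adjusted p = 0.000223). The median was 2.32 over all genes tested, but 5.08 over the 1215 genes with a mean of at least 10 CPM, all called higher. In edgeR the median was 4.76 and PSAE-2 was at 4.86, so PSAE-2 lay near the median of these settings. The order of the upper values depended on the setting: PSAD-2 lay above PSAH-1 in edgeR (8.01 and 7.88), and without control replicate 1, in which PSAH-1 was at 0, PSAH-1 was at 7.28. When each library was instead centred on the genes above 0 in every library, the log2 difference of PSAE-2 was -0.95 and that of PSAE-1 was 0.34, neither called, beside 0.96 to 1.92 for the other 4 members, which were called, and a median over all genes of -3.81. Of all genes, 0.707% were called higher in that setting. With TMM scaling in edgeR PSAE-2 was not called either (log2 difference 1.08, adjusted p = 0.402), while 5 of 6 members and 6.98% of all genes were called higher. The median over all genes was 3.89 in that setting. PSAD-1 at 3.36, PSAE-1 at 2.81 and PSAH-2 at 3.67 lay below it like PSAE-2, and PSAD-2 at 4.17 and PSAH-1 at 4.11 above it.

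Without enrichment, tagged reads were few. PSAD-1 had 26.4, 21.0 and 25.0 CPM of tagged reads in unenriched libraries with ADPRC, and PSAD-2 had 31.7, 42.0 and 32.2 CPM. PSAD-2 thus had the higher tagged level in each library, while PSAD-1 had the higher level among all reads. PSAE-1 had 42.3, 42.0 and 39.3 CPM, against 2.64, 3.23 and 8.93 CPM for PSAE-2, which are 1, 2 and 5 reads. PSAH-1 had 21.1, 21.0 and 14.3 CPM and PSAH-2 had 26.4, 25.8 and 32.2 CPM.

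In the unenriched library without ADPRC no tagged read of any of the 6 genes was found, where a count of 0 allows up to 3 reads or 6.90 CPM. Against that floor the mean tagged levels with ADPRC were at least 3.50-fold higher for PSAD-1, 5.11-fold for PSAD-2, 5.97-fold for PSAE-1, 2.73-fold for PSAH-1 and 4.08-fold for PSAH-2. PSAE-2 at 4.94 ± 3.48 CPM (SD, n = 3) lay under the floor, so its level could not be told from the background at this depth. Floors and intervals of shares cover counting error only.

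Among libraries with ADPRC, the tagged level of each gene was higher after enrichment, without overlap for 6 of 6 members and for 95.2% of all genes tested. Mean tagged levels in enriched over unenriched libraries with ADPRC stood at ratios of 42.2 for PSAD-1, 40.4 for PSAD-2, 28.2 for PSAE-1, 18.8 for PSAE-2, 42.7 for PSAH-1 and 27.9 for PSAH-2. On log2(CPM + 1.23), limma called all 6 higher, where 95.7% of the 7623 genes tested were called higher. The limma log2 differences ran from 4.07 for PSAE-2 (SE 0.42, adjusted p = 0.000315) to 5.30 for PSAD-1 (SE 0.30, adjusted p = 6.20e-05) and PSAH-1 (SE 0.34, adjusted p = 7.64e-05). The median was 2.01 over all genes tested, but 4.23 over the 1237 genes with a mean of at least 10 CPM, all called higher. In edgeR the median was 4.33 and PSAE-2 was at 4.15, so PSAE-2 lay below the median in both settings. With libraries centred on genes above 0 in every library, 3 of 6 members and 0.774% of all genes were called higher and PSAE-2 was at -0.25, beside a median of -2.31 over all genes. With TMM scaling in edgeR 5 of 6 members and 1.67% of all genes were called higher, without PSAE-2 (0.80, adjusted p = 0.644). The members ran from 0.80 for PSAE-2 to 2.02 for PSAH-1 in that setting, all below the median of 3.42 over all genes. This comparison and the one with and without ADPRC share the enriched libraries with ADPRC.

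The share of a gene's own reads that carried the tag differed by the largest mean ratio within the PSAD pair. In unenriched libraries with ADPRC, 0.612%, 0.476% and 0.535% of PSAD-1 reads were tagged in replicates 1, 2 and 3. Of PSAD-2 reads, 1.93%, 2.56% and 1.91% were tagged. PSAD-2 was the higher copy in every library, and the 95% Wilson intervals of the copies did not overlap in replicates 2 and 3 but met in replicate 1, where they ran from 0.333% to 1.12% for PSAD-1 and from 1.11% to 3.34% for PSAD-2. After enrichment the shares were 22.3%, 19.3% and 13.5% for PSAD-1 and 42.3%, 43.5% and 24.2% for PSAD-2, and the intervals did not overlap in any library.

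Over the 6 libraries with ADPRC the tagged share of PSAD-1 was 0.362 times that of PSAD-2 (mean log2 ratio -1.47, SD 0.60) and lower in 6 of 6 libraries. The exact sign-flip permutation test, two-sided, gave p = 0.0313, the smallest that 6 libraries allow, and 0.0938 after adjustment over the 3 pairs, so the difference did not pass the correction. The log2 ratio was -1.96 ± 0.40 in unenriched and -0.98 ± 0.17 in enriched libraries (SD, n = 3 each). These did not overlap between the library types, and their difference of 0.98 had p = 0.1 in an exact permutation test, two-sided, the smallest that 3 against 3 libraries allow, and 0.3 after adjustment. On odds in place of shares the difference was 0.62. The same difference was 0.71 for PSAE and -0.27 for PSAH, with p = 0.2 and 0.4 in the exact permutation test, and 0.3 and 0.4 after adjustment.

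In the PSAE pair the copies were apart after enrichment and mixed without it. Tagged shares of PSAE-1 were 28.9%, 27.8% and 19.7% in enriched libraries with ADPRC, and those of PSAE-2 were 16.0%, 14.5% and 13.7%. PSAE-1 was the higher copy in each of these libraries and the Wilson intervals did not overlap. Unenriched, PSAE-1 had 0.932%, 0.850% and 0.821%, against 0.377%, 0.531% and 1.52% for PSAE-2, whose shares rest on 1, 2 and 5 tagged reads. The copies overlapped there, and replicate 3 had PSAE-2 above PSAE-1.

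Over the 6 libraries the share of PSAE-1 was 1.33 times that of PSAE-2 (mean log2 ratio 0.41, SD 0.72), higher in 5 of 6, with p = 0.25 in the exact permutation test, two-sided, and 0.25 after adjustment. The mean log2 ratio was 0.77 ± 0.22 in enriched and 0.05 ± 0.93 in unenriched libraries (SD, n = 3 each). The spread between unenriched libraries exceeds that mean, so no difference between the copies was detectable at that depth.

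In the PSAH pair the less abundant copy had the higher share in 5 of 6 libraries. PSAH-1 had tagged shares of 34.4%, 34.7% and 25.6% in enriched libraries with ADPRC and PSAH-2 had 30.4%, 28.0% and 22.1%. Unenriched, PSAH-1 had 1.53%, 1.52% and 1.04%, and PSAH-2 had 0.932%, 0.879% and 1.07%. The Wilson intervals of the copies were apart in each enriched library and overlapped in each unenriched one, and PSAH-2 was the higher copy in unenriched replicate 3. The share of PSAH-1 was 1.29 times that of PSAH-2 (mean log2 ratio 0.37, SD 0.32, higher in 5 of 6 libraries), with p = 0.0625 in the exact permutation test, two-sided, and 0.0938 after adjustment over the 3 pairs.

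**Figure D2:**
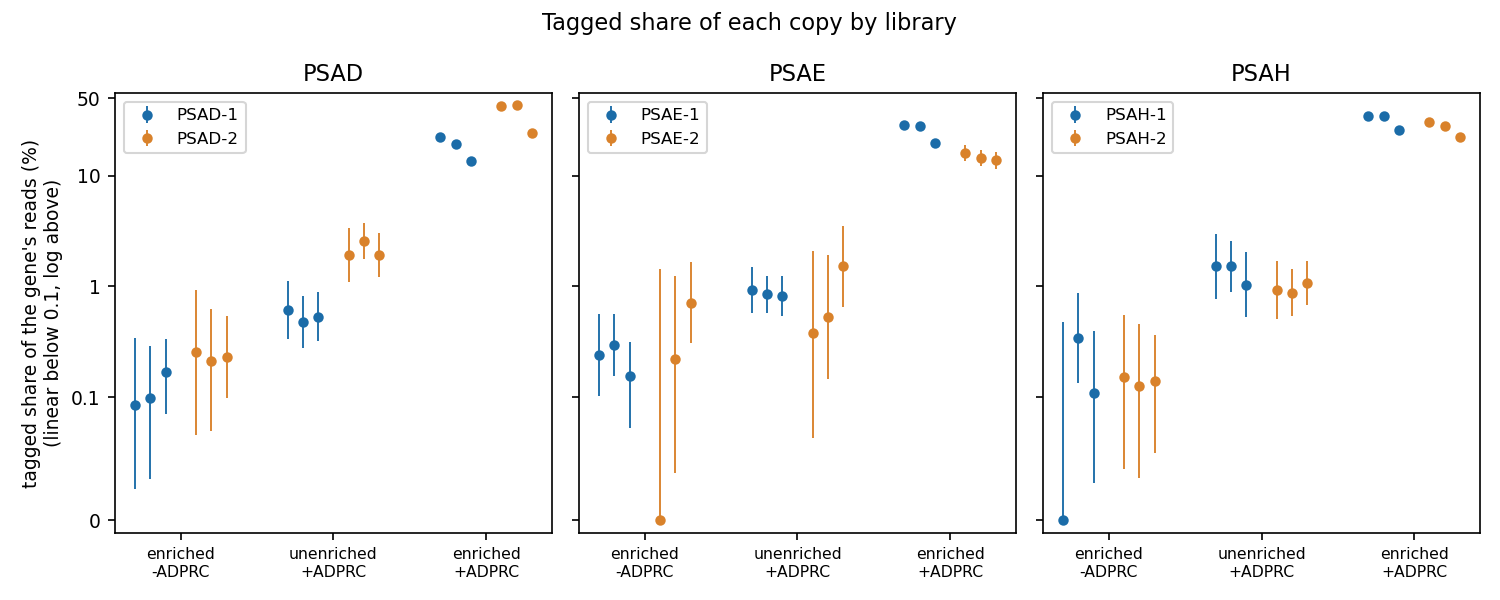
Tagged share of each gene's reads in percent (vertical axis, linear near 0 and logarithmic above) in single poly(A) libraries, for enriched libraries without ADPRC and for unenriched and enriched libraries with ADPRC. Points are libraries and bars are 95% Wilson intervals. PSAD-2 lies above PSAD-1 in each library with ADPRC, while the PSAE copies are mixed in unenriched libraries.

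Without ADPRC the shares were low for all members. In enriched libraries they were 0.121% ± 0.0429 for PSAD-1, 0.234% ± 0.0203 for PSAD-2, 0.230% ± 0.0713 for PSAE-1, 0.312% ± 0.366 for PSAE-2, 0.151% ± 0.175 for PSAH-1 and 0.139% ± 0.0132 for PSAH-2 (SD, n = 3). These are the background for the enriched shares. In the unenriched library without ADPRC, 0 of 2114 reads of PSAD-1 and 0 of 862 of PSAD-2 were tagged, with Wilson upper bounds of 0.181% and 0.444%. The shares of both PSAD copies with ADPRC lie above these bounds in each unenriched library. For PSAE-2, 0 of 293 reads allow up to 1.29%.

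The part of a pair's reads that came from the second copy shows the same data by pair. PSAD-2 gave 27.0% ± 0.585 of all PSAD reads and 59.2% ± 6.56 of tagged PSAD reads in unenriched libraries with ADPRC (SD, n = 3). In enriched libraries it gave 39.7% ± 5.77 of all and 56.2% ± 8.60 of tagged reads. PSAD-2, the minor copy of all reads, was thus the major copy of tagged reads on average in both library types. PSAE-2 gave 11.8% ± 1.41 of all and 10.5% ± 6.96 of tagged reads unenriched, and 12.3% ± 1.12 and 7.70% ± 1.88 after enrichment. PSAH-2 gave 67.9% ± 0.626 of all and 60.0% ± 8.01 of tagged reads unenriched. After enrichment it gave 53.9% ± 3.40 and 49.9% ± 4.43, so that tagged PSAH reads came about equally from both copies.

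**Figure D3:**
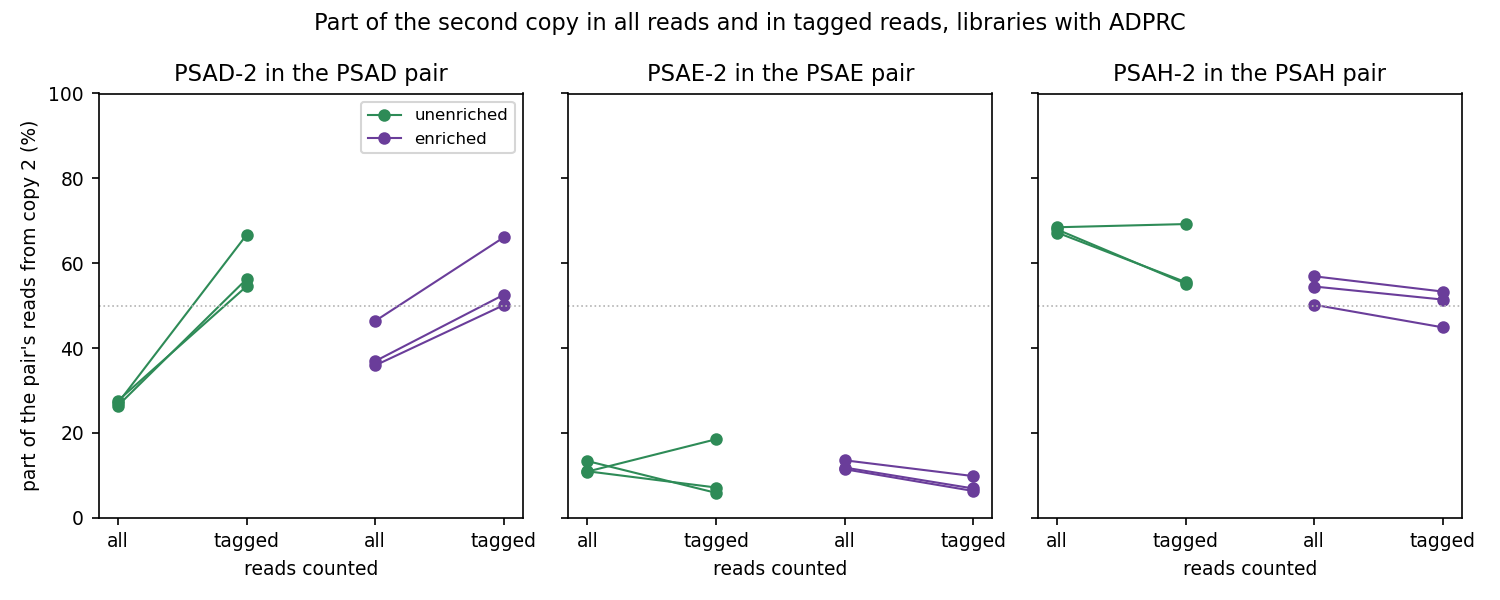
Part of each pair's reads that came from the second copy, in percent (vertical axis), among all reads and among tagged reads of the same library. Lines join the values of 1 library with ADPRC, unenriched or enriched, and the dotted line marks equal parts. PSAD-2 moves from 27.0% of all to 59.2% of tagged reads on average in unenriched libraries.

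Set among the other genes, PSAD-2 and PSAH-1 had the highest tagged shares of the 6. Among 1328 genes with a mean of at least 100 CPM in unenriched libraries with ADPRC, whose median share was 0.457%, PSAD-2 ranked 52, PSAH-1 180, PSAH-2 338, PSAE-1 388, PSAE-2 423 and PSAD-1 594. Among 1391 such genes in enriched libraries, whose median was 18.4%, PSAD-2 ranked 79, PSAH-1 156, PSAH-2 289, PSAE-1 340, PSAD-1 696 and PSAE-2 892. PSAD-1 thus had a share of 18.4% ± 4.50 near the median gene, and PSAE-2 at 14.7% ± 1.13 (SD, n = 3 each) was below it after enrichment. These ranks carry no test.

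**Figure D4:**
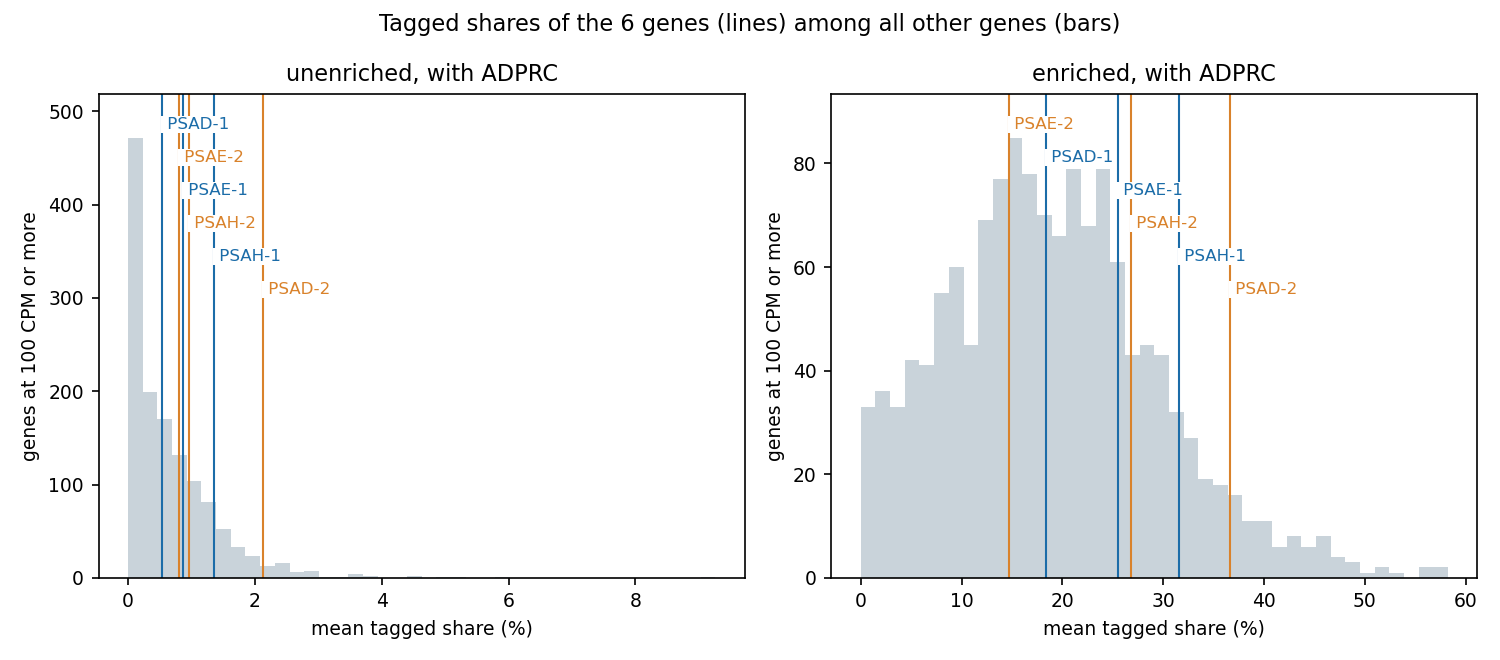
Number of genes (vertical axis) by mean tagged share in percent (horizontal axis) in unenriched and enriched libraries with ADPRC, for genes at 100 CPM or more. Bars are all other genes and lines the 6 members. PSAD-2 is the rightmost line in both panels, at 2.14% and 36.7%.

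Among all reads, PSAD-2 and PSAH-1 were also the members called higher in enriched than in unenriched libraries with ADPRC. PSAD-2 stood at 3163, 5093 and 2973 CPM in enriched libraries with ADPRC, against 1638 to 1680 CPM unenriched, and PSAH-1 at 2510.4, 2865 and 2158 CPM against 1380 to 1386 CPM. PSAD-1, PSAD-2 and PSAH-1 did not overlap between the groups and were higher after enrichment, 3 of 6 members where 16.1% of all genes tested did so, and 0 of 6 were lower without overlap, where 8.66% were. In limma, PSAD-2 rose by a log2 difference of 1.13 (SE 0.18, adjusted p = 0.00529) and PSAH-1 by 0.85 (SE 0.13, adjusted p = 0.00427), beside a median of 0.20 over all genes. These were 2 of 6 members called higher, where 2.99% of the 18831 genes tested were called higher, and 0 of 6 were called lower, where 1.96% were. Without unenriched replicate 2 or 3 the call of PSAD-2 was lost, with limma adjusted p = 0.0503 and 0.0507 at log2 differences of 1.13 and 1.14. These fits called 233 of 18395 and 213 of 18444 genes higher. Without enriched replicate 1 PSAD-1 was called as well (limma adjusted p = 0.0268), in a fit that called 1024 of 17936 genes higher.

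The other members were not called. PSAD-1 was at 5534 ± 312 CPM enriched and 4469 ± 184 CPM unenriched (SD, n = 3), with a limma adjusted p of 0.165. PSAE-1 was at 4527 ± 416 against 4755 ± 204 CPM, PSAE-2 at 631 ± 25.3 against 632 ± 60.5 CPM, and PSAH-2 at 2917 ± 82.0 against 2924 ± 81.4 CPM. The tagged reads are part of all reads, so untagged reads were also set side by side. Untagged PSAD-2 stood at 2319 ± 529 CPM enriched and 1619 ± 26.2 CPM unenriched, and untagged PSAH-1 at 1708 ± 143 and 1364 ± 2.18 CPM, while untagged PSAE-1 stood at 3364 ± 201 and 4713 ± 205 CPM.

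The enriched libraries without ADPRC lay between these groups in the mean for both genes. PSAD-2 stood there at 2018, 2698 and 2264 CPM and PSAH-1 at 2064, 2241 and 1919 CPM, all above the unenriched libraries with ADPRC. The single unenriched library without ADPRC had 1983 CPM for PSAD-2, close to the lowest of these, and 1525 CPM for PSAH-1. Between enriched libraries with and without ADPRC, limma called 0 of 6 members in either direction (1 member, PSAD-2, had an unadjusted p under 0.05), where 0.0731% of the 19150 genes tested were called higher and 0.0418% lower. Without overlap, PSAD-2 was higher with ADPRC and PSAE-2 lower, 1 of 6 members each way, where 7.1% and 6.36% of all genes tested were. PSAD-2 had a log2 difference of 0.65 (SE 0.21, adjusted p = 0.499 in limma), and of 0.41 without replicate 2 of the libraries with ADPRC, the highest one. The replicate numbers pair these libraries, and with the replicate as a block PSAD-2 was called (SE 0.11, limma adjusted p = 0.00454), where 0.789% of genes were called higher. DESeq2 also called PSAD-2, with an adjusted p of 0.0454, and edgeR did not (adjusted p = 0.168). DESeq2 called 64 genes higher but gave no adjusted p for 16707 of the 19150, so its correction covered far fewer genes than that of limma.

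Within pairs, the all-read ratio of the copies lay on average nearer to 1 in enriched libraries for PSAD and PSAH. PSAD-1 over PSAD-2 averaged 2.70 in unenriched libraries with ADPRC, 2.35 in enriched libraries without ADPRC and 1.55 in enriched libraries with ADPRC. PSAH-1 over PSAH-2 averaged 0.473, 0.661 and 0.861 in the same order, and PSAE-1 over PSAE-2 averaged 7.59, 7.05 and 7.18. For PSAD, the enriched libraries without ADPRC, at 2.72, 2.15 and 2.19, overlapped the unenriched libraries with ADPRC, at 2.62, 2.70 and 2.78. In the single unenriched library without ADPRC the ratios were 2.45 for PSAD, 0.480 for PSAH and 7.88 for PSAE. Between enriched and unenriched libraries with ADPRC the log2 ratio differed by -0.83 for PSAD and by 0.86 for PSAH, each with p = 0.1 in the exact permutation test, two-sided, the smallest that 3 against 3 allow, and 0.15 after adjustment over the 3 pairs. For PSAE the difference was -0.08 (p = 0.5 in the exact permutation test). On untagged reads alone it was -0.47 for PSAD, -0.27 for PSAE and 0.76 for PSAH. Between enriched libraries with and without ADPRC, the log2 ratio differed by -0.62 for PSAD, 0.03 for PSAE and 0.38 for PSAH. In the exact permutation test, two-sided, PSAD and PSAH each had p = 0.1, and 0.15 after adjustment. This test left out the pairing of these libraries by replicate number, and a paired sign-flip test over 3 pairs cannot go below 0.25. A further comparison, chosen after the values were seen, set enriched libraries without ADPRC against unenriched libraries with it. There the log2 ratio differed by -0.21 for PSAD, -0.10 for PSAE and 0.48 for PSAH. The exact permutation test, two-sided, gave p = 0.3, 0.6 and 0.1, and 0.45, 0.6 and 0.3 after adjustment.

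Some reads cannot be assigned with certainty. How reads that match both copies of a pair were counted is not given in the sources used here. In the supplied annotation 5 of the 6 genes overlap at least 1 other listed gene, and PSAD-1 overlaps none. In unenriched libraries with ADPRC the overlapping genes had few reads relative to the member, with AT2G20270 beside PSAE-2 the highest at 3.88% of the PSAE-2 reads. The others were at 2.13% (ROPGEF11 beside PSAH-2), 2.07% (AT1G03140 beside PSAD-2), 0.981% (ROPGEF13 beside PSAH-1) and at most 0.301% (beside PSAE-1). In enriched libraries with ADPRC AT2G20270 stood higher, at 72.8 CPM of all reads and 31.2 CPM of tagged reads. PSAE-2 stood there at 631 ± 25.3 CPM of all and 92.9 ± 3.52 CPM of tagged reads (SD, n = 3). How far reads of the overlapping gene enter the tagged share of PSAE-2 was not tested.

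The other nuclear photosystem I subunit genes gave a frame for these values. Their tagged shares in unenriched libraries with ADPRC were 0.643% for PSAF, 1.03% for PSAG, 1.13% for PSAK, 0.908% for PSAL, 0.873% for PSAN and 1.30% for PSAO, and in enriched libraries 12.7%, 23.6%, 30.7%, 24.1%, 30.1% and 25.9% in the same order. The mean share of PSAD-2 lies above all of them in both, and that of PSAD-1 below all of them in unenriched libraries. PSAF binds plastocyanin on the lumenal side together with PSAN, PSAG and PSAK lie at the edge of the complex, and PSAL and PSAO adjoin PSAH. Among tagged reads all 6, the 4 LHCA genes of the photosystem I antenna and 5 of 5 assembly factor genes were called higher with ADPRC and with enrichment, where 96.7% and 95.7% of all genes tested were. Among all reads, enriched libraries with against without ADPRC, 0 of 6 subunit, 0 of 4 antenna and 0 of 5 assembly genes were called, where 0.0731% of genes were called higher and 0.0418% lower. Among all reads, enriched against unenriched, where 2.99% were called higher and 1.96% lower, limma called PSAO higher (log2 difference 0.55, adjusted p = 0.0341) and PSAN lower (-0.98, adjusted p = 0.00286), and of the assembly genes PYG7 higher (0.99, adjusted p = 0.0419), while 0 of 4 antenna genes were called. The plastid-encoded psaA, psaB and psaJ stood at 1.13 ± 0.99, 1.13 ± 0.99 and 2.30 ± 2.71 CPM in unenriched poly(A) libraries with ADPRC (SD, n = 3). These means lie under the floor of 3 reads, 4.85 to 7.93 CPM in these libraries, so plastid expression cannot be judged from them. No values were listed for psaC and psaI.

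Patterns over the 10 poly(A) libraries were compared by the root mean square difference of log2 values over 20 values, tagged and all reads of each library, after each gene's mean over each table was taken out. The measure thus compares profiles across libraries and not levels, and 1279 candidate genes were compared. Closest to PSAD-1 were PSAK (0.323) and PSBQA (0.327), closest to PSAD-2 were PSBY (0.290) and PSAG (0.388), and closest to PSAE-1 were LHCB2.2 (0.180) and PSAF (0.294). For PSAE-2 they were UBQ5 (0.281) and AT5G65220 (0.321), for PSAH-1 PSBY (0.320) and AT4G23670 (0.332), and for PSAH-2 LHCB2.3 (0.306) and PSAL (0.351). Between the copies of a pair the difference was 0.408 for PSAD, 0.909 for PSAE and 0.575 for PSAH. The genes named above are the closest by choice, so they are no yardstick for the copies. Of the 1279 candidates, 12 lay closer to PSAD-1 than its copy did, and 3 to PSAD-2. The same counts were 259 for PSAE-1, 1031 for PSAE-2, 19 for PSAH-1 and 56 for PSAH-2. Outside enriched libraries with ADPRC, PSAE-2 had 0 to 5 tagged reads per poly(A) library, which limits its pattern. PSBY and PSBQA belong to photosystem II and the LHCB genes encode its antenna. The values share libraries and depth and describe these samples.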

How the data were processed

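Tagged reads and all reads are held in separate deposited tables, with 1 value per gene and library. Although named TPM per the file headers, the deposited values behave as CPM: they are whole multiples of the value of 1 read, over the library's total of all reads, with no length correction. Base caller, aligner, build and how tagged reads were recognised: not given in the sources used here. The row that names no gene held 1 read and was left out. Members and lists were chosen with earlier results of these data known. The rule for named genes takes the 6 members, the 6 other nuclear photosystem I subunit genes and, per member, the 2 genes with the closest pattern. Genes that overlap a member, listed plastid genes and PYG7, the called assembly gene, are named outside it, PYG7 after its values were seen.

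Genes were tested with limma 3.58.1 in R 4.3.3 (trend, two-sided, Benjamini-Hochberg over all genes) on log2(CPM + pseudocount), keeping genes with a value above 0 in 3 or more of the fitted libraries. Genes at an adjusted p under 0.05 were called. On this scale changes of low genes are understated. edgeR 4.0.16 and DESeq2 1.42.0 were run on the recovered reads as alternatives. Copies were compared by exact permutation tests over libraries on log2 ratios, with 0.5 added to tagged reads and 1 to all reads. The planned coding length was not used here, so level ratios rest on CPM as deposited. The ratio per kilobase of gene span in the TAIR10.1 table was added after the values were seen, as was the ratio on untagged reads. On simulated data limma recovered 93 to 95% of 200 genes changed by 2 on the log2 scale, with 0 to 2 false calls in each of the 4 comparisons. The changed genes were drawn from well-covered ones, with 1 fixed spread, no pairing and all other genes unchanged. In the tagged comparisons 96.7% and 95.7% of genes were called higher, so these rates do not carry over to them.

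Same-numbered enriched libraries with and without ADPRC deviated together (r = 0.553, 0.584 and 0.443 over genes), so their numbers were taken to pair them. The main limma fits and the exact permutation tests between these groups did not use this pairing, while the fits with a replicate block did. Total RNA libraries had 6479 and 1237 reads.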

Additional observations from a re-analysis of the deposited data

How the results depend on the processing

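All values here are log2 differences or ratios unless called counts. With libraries centred on genes above 0 in every library, tagged PSAE-2 turned to -0.95 (with minus without ADPRC) and -0.25 (enriched minus unenriched), and the count of members called higher by enrichment was 3 in place of 6. With all reads, enriched minus unenriched, PSAE-2 turned to -0.025 with TMM and -0.059 with centring, and leaving out each library in turn gave -0.050 to 0.079 for PSAE-2, -0.026 to 0.014 for PSAH-2 and 1 to 3 members called. For enriched libraries with minus without ADPRC, all reads, the count called was 1 with DESeq2 and 1 with the replicate block, where PSAD-2 had an adjusted p of 0.00454 in limma, and PSAD-1 ran from -0.029 to 0.085 without single libraries. The PSAE level ratio, enriched with minus without ADPRC, was -0.17 on untagged reads and -0.030 to 0.12 without single libraries, and enriched minus unenriched it ran from -0.19 to 0.0075. Level ratios within 1 group of 3 libraries, where the exact permutation p cannot go below 0.25, were 0.61, 2.84 and -0.23 for PSAD, PSAE and PSAH in enriched libraries with ADPRC, 1.23, 2.81 and -0.60 without it, and 1.43, 2.92 and -1.08 unenriched. The block changed no other call of a member, and enriched and unenriched libraries share only a number. Over all genes, the count called higher with ADPRC among tagged reads was 7384, against 4408 with DESeq2, 533 with TMM and 54 with centring, which called 7114 lower. By enrichment it was 7297, against 3951, 127 and 59 with 6063 lower. DESeq2 gave no adjusted p for 2504 of 7634 and 2508 of 7623 genes in these comparisons, so those genes could not be called. Fits that left out an enriched library with ADPRC tested 1388 to 2222 genes. All-read calls numbered 563 higher and 369 lower by enrichment, with 213 to 1024 higher without single libraries, and 14 and 8 with minus without ADPRC, with 0 to 151 higher over all settings. The causes were not tested. Tagged reads of PSAE-2 in unenriched libraries, 1 to 5 per library, limit the precision of its share.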

Other observations

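The total RNA libraries were too shallow for a comparison of the copies. With ADPRC, 4 of 73 reads of the 6 genes were tagged (5.48%, 95% Wilson interval 2.15% to 13.3%), namely 1 of 18 for PSAD-1, 1 of 13 for PSAD-2 and 2 of 12 for PSAH-2. Without ADPRC, 0 of 20 reads were tagged, with an upper bound of 16.1%. Each group is 1 library.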
